A study of Mus musculus with 24 samples.

Results

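In mouse retina at postnatal day 17 (P17), 642 genomic sites carried a peak of the transcription factor SOX8 or SOX9 and no peak of either histone mark measured, H3K4me3 or H3K27ac. They were chosen from the P17 peak lists: SOX8 and SOX9 peaks were merged where they overlapped, which gave 3833 sites, and a site was kept if it shared not 1 bp with a P17 H3K4me3 or P17 H3K27ac peak. The 642 sites were 16.7% of all merged sites (95% Wilson interval 15.6 to 18%). Of the others, 2318 overlapped both marks, 795 overlapped H3K27ac only and 78 overlapped H3K4me3 only. Absence of the P17 marks was therefore the choice itself and is not a result. The 795 sites with H3K27ac only served as the main comparison, since they too lack H3K4me3 and were of like width.

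The study profiled retinas of wild-type mice at postnatal day 2 (P2) and P17 by CUT&RUN, in which an antibody brings a nuclease to a chromatin protein and the DNA cut loose around it is sequenced. There were 24 libraries from 600000 nuclei each: at each age 4 for SOX8 (2 antibodies), and 2 each for SOX9, H3K4me3, H3K27ac and a control IgG. Strain, sex and treatment are not named in the labels. The data analysed were 8 deposited peak lists, 1 per target and age, with no read counts and a score of 0 for every peak, so that the depth behind a peak is unknown.

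SOX8 and SOX9 are closely related members of the SoxE group, which bind DNA through a high-mobility-group box. In the retina they are known from progenitor cells and from Müller glia, the radial glial cells that span the mature tissue. H3K4me3 is typical of active promoters, whereas H3K27ac is found at active promoters and enhancers. Because nuclei of the whole retina were used, a mark carried by few cells and a weak mark carried by many cannot be told apart.

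No member was replicated in these files, since each list stood for all libraries of its target. The intervals given below are 95% Wilson intervals for a share and 95% Newcombe intervals for a difference of shares. They treat each site as 1 draw and cover counting error only, not the spread between mice or libraries. Neighbouring sites are not independent, and no p-value was computed.

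Promoters under these sites are shown first, as examples that differ in CpG content. They do not span the whole range: the CpG ratio of the 129 promoter windows under the sites ran from 0 (4931408C20Rik) to 1.18 (Gramd4). Windows with the lowest ratios are not among those shown. CpG-rich windows (a CpG ratio over 0.6 with GC over 50%) were 49.6% of those under the sites, against 44.9% of all promoter windows. Each run gives the RefSeq bases (GRCm38.p6) just before the transcription start, 5′ to 3′ on the gene's strand, with CG pairs in capitals. Unc5b encodes a netrin receptor, Wnt1 a secreted WNT ligand, Aebp1 an extracellular matrix protein, Entpd2 an enzyme that hydrolyses extracellular nucleotides, and Smtn the smooth muscle protein smoothelin. Wnt1 was picked after its values were seen.
Unc5b promoter, chr10:60831582-60831731, strand minus: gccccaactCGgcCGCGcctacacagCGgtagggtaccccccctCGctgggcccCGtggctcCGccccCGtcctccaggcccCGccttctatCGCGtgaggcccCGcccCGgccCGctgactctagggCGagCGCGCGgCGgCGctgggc
Wnt1 promoter, chr15:98789707-98789856, strand plus: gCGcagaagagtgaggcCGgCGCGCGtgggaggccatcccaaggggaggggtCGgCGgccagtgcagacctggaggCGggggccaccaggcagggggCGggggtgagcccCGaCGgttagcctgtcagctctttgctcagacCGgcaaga
Aebp1 promoter, chr11:5861716-5861865, strand plus: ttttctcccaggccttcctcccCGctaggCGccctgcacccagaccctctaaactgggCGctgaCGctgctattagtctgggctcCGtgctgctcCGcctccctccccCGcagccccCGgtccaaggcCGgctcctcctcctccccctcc
Entpd2 promoter, chr2:25395724-25395873, strand plus: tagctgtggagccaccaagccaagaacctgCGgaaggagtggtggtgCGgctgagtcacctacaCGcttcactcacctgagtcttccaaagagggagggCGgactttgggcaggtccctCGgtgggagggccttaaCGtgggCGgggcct
Smtn promoter, chr11:3539293-3539442, strand minus: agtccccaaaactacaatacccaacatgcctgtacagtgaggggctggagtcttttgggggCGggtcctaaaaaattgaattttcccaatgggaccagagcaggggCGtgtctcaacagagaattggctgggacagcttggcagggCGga
The Unc5b run held 20 CG pairs in 150 bases, the Wnt1 run 12, the Aebp1 run 9, the Entpd2 run 7 and the Smtn run 3. The observed-to-expected CpG ratio over the whole promoter window (250 bases before to 50 after the start) fell in the same order, from 0.990 for Unc5b through 0.699, 0.602 and 0.466 for Wnt1, Aebp1 and Smtn, except that Entpd2, at 0.451, lay just below Smtn. At P2, an H3K4me3 peak lay on the Smtn site but on none of the sites at Unc5b, Wnt1, Aebp1 and Entpd2.

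The next pair holds letters that SOX proteins are known to favour. AACAAT and AACAAAG were searched on both strands, and their matches are in capitals. The words share their first 5 letters, but no single match can be of both. Smad6 encodes an inhibitory SMAD of BMP signalling, and Six5 a homeobox factor. The Smad6 run is shorter, at 124 bases.
Smad6 promoter, chr9:64022086-64022209, strand minus: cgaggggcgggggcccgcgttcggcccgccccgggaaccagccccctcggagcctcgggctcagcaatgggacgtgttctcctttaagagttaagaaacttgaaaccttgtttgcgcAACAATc
Six5 promoter, chr7:19094394-19094543, strand plus: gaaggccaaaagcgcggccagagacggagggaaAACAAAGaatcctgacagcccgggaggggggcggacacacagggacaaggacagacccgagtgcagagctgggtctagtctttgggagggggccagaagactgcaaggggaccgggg
Both sites carried a P2 SOX9, a P2 SOX8 and a P2 H3K4me3 peak, as did the site at Fzd7, whose window also held a match. None of these P2 peaks lay on the sites at Tnfrsf25, Meltf, Il17rc and Tlx3, which had a window with a match as well. A match was found in 8.53% of the windows under the unmarked sites, against 13.4% of all windows. A match is a description of letters and not a bound site.

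The sites differed in which factor marked them. Of the 642, 248 held a SOX8 peak only, 333 a SOX9 peak only and 61 (9.50%, 7.47 to 12%) held both. Both factors were found at 17.6% of the H3K27ac only sites and at 48.9% of the sites with both marks. In the lists before merging, 334 of 2400 SOX8 peaks and 398 of 2855 SOX9 peaks lacked both marks. Of these, 312 SOX8 peaks and 395 SOX9 peaks lay in the 642 sites, and the rest had merged with a peak that touched a mark. These shares come from the lists that chose the sites and are given as a description.

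The distance to the nearest P17 mark ran from 6 bp to 4557027 bp, with a median of 12003 bp and quartiles of 4244 and 34855 bp. A mark lay within 1000 bp of 46 sites (7.17%), within 5000 bp of 176 (27.4%) and within 50000 bp of 530 (82.6%). Most sites were thus not cut off from a peak by a few bases, and most were also not far from one. Just inside the limit lay a site in Hic1 and Smg6 with a gap of 6 bp and a site in Pxn, which encodes the focal adhesion protein paxillin, with a gap of 12 bp. Then followed sites in Xxylt1 (26 bp), Kmt2d (35 bp) and Pla2g4b and Sptbn5 (55 bp). Just outside lay sites in Zmiz1 and Qprt, each sharing 1 bp with a mark, then in Dcst1 and Dcst2 (5 bp), Lrp8 (32 bp) and Glis1 (44 bp).

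The unmarked sites were wide, with a median of 5650 bp (95% interval of the median 5401 to 5884 bp), quartiles of 3698 and 6979 bp, and a range of 2 to 25004 bp. The H3K27ac only sites had a median of 5749 bp (5640 to 5920 bp), and these intervals overlap. Sites with both marks were narrower, with a median of 4063 bp (3958 to 4185 bp). Among the unmarked sites, width went with the factor. The median was 3199 bp where only SOX8 had a peak, 6574 bp where only SOX9 had one and 7450 bp where both did. Very short sites were nearly all SOX8: of 20 unmarked sites under 500 bp, 19 held SOX8 only. Sites that short were 3.12% of the unmarked sites and 0.755% of the H3K27ac only sites.

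**Figure D1:**
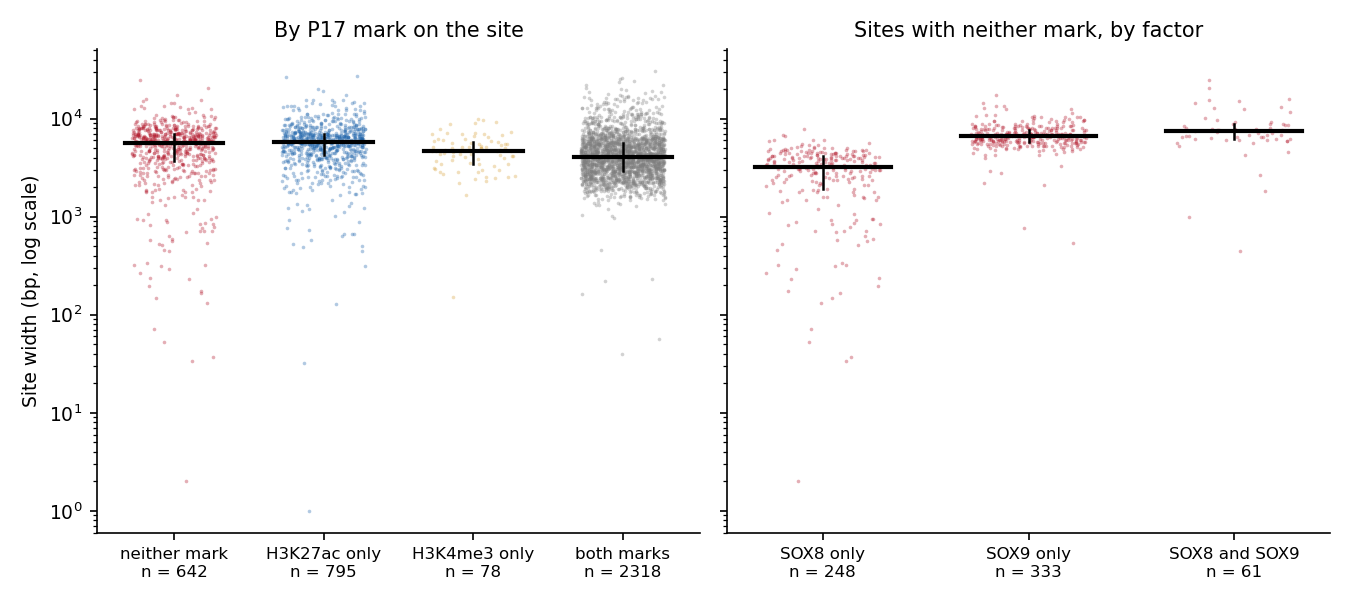
Width of each merged P17 SOX site in bp on a log axis, by P17 mark (left) and, for sites with neither mark, by factor (right); points are sites, horizontal bars medians and vertical bars quartiles. The unmarked and the H3K27ac only sites have medians of 5650 and 5749 bp, and sites with SOX8 only are the narrowest of the unmarked, at 3199 bp.

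The widest unmarked site was 25004 bp wide (chr5:139748360-139773363) and overlapped Ints1, which encodes a subunit of the Integrator complex that processes small nuclear RNAs. It held both factors, and P2 H3K27ac peaks covered 61.5% of it. The next widest lay in Cep131, a centrosomal protein gene (20372 bp, 94.1% covered), and across Aebp1 and Pold2, the latter a subunit gene of DNA polymerase delta (17369 bp, 54.6%). Then came Aspg (15744 bp), the T-type calcium channel gene Cacna1h (15443 bp), the cytolinker gene Plec (15303 bp, 100% covered) and the adhesion receptor gene Adgrb1 (14560 bp). The list of the 10 widest closed with a site 1801 bp from Dnajb8 (14291 bp), one in Grap and Slc5a10 (13483 bp) and one in Nbeal2 (13389 bp, 20.9% covered). Of these 10 sites, those at Aebp1, Dnajb8, Grap and Nbeal2 held SOX9 only, and all other members of the 10 held both factors.
The 10 widest sites with both factors also took in Mybbp1a and Spns2 (13265 bp), Cilp2 (12858 bp), Celsr2 (12424 bp) and Kif26a (11809 bp). Celsr2 encodes a cadherin of planar cell polarity, and 94.2% of its site lay in P2 H3K27ac peaks. In the site at Cilp2 the covered share was only 8.28%.

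Most unmarked sites had carried H3K27ac at P2. A P2 H3K27ac peak touched 544 of 642 (84.7%, 81.7 to 87.3%), against 780 of 795 H3K27ac only sites (98.1%) and 96.0% of all 3833 sites. The share was lower than at the H3K27ac only sites by 13.4 percentage points (difference -13.4, interval -16.5 to -10.5). These classes were split by P17 H3K27ac, the same mark at the later age. Their differences in P2 H3K27ac, here and below, are thus not independent of the choice and are descriptions. The P2 list was much larger than the P17 list, with 287845 peaks covering 525 Mb against 29909 covering 173 Mb. Keeping only the widest P2 peaks, in the number of the P17 list, left 53.0% of the unmarked sites with a P2 peak and a difference of -25.3 points. As a reference for the full P2 list, the chromosomes were cut into 460213 consecutive pieces of 5650 bp, of which 52.6% touched a P2 H3K27ac peak. This share is to be read beside the 84.7% and not the 53.0%, since no pieces were scored with the widest peaks alone. Among the 198269 pieces that touched a protein-coding gene, the share was 66.9%.

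The reach of P2 H3K27ac over the sites differed more than its presence. P2 H3K27ac peaks covered 59.5% of the bases of the unmarked sites, 81.8% of those of the H3K27ac only sites, 20.2% of all the pieces and 30.0% of the pieces in genes. The median unmarked site was covered over 68.6% of its length (95% interval of the median 62.5 to 74.2%), and the median H3K27ac only site over 97.5% (95.5 to 99.6%). At least 50% of the bases were covered in 396 unmarked sites (61.7%) and in 682 H3K27ac only sites (85.8%). All bases were covered in 141 (22.0%) and 360 (45.3%). Sites with both marks were fully covered about as often as the unmarked sites, in 503 cases (21.7%). At least 50% of the bases were covered in 2022 of them (87.2%).

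**Figure D2:**
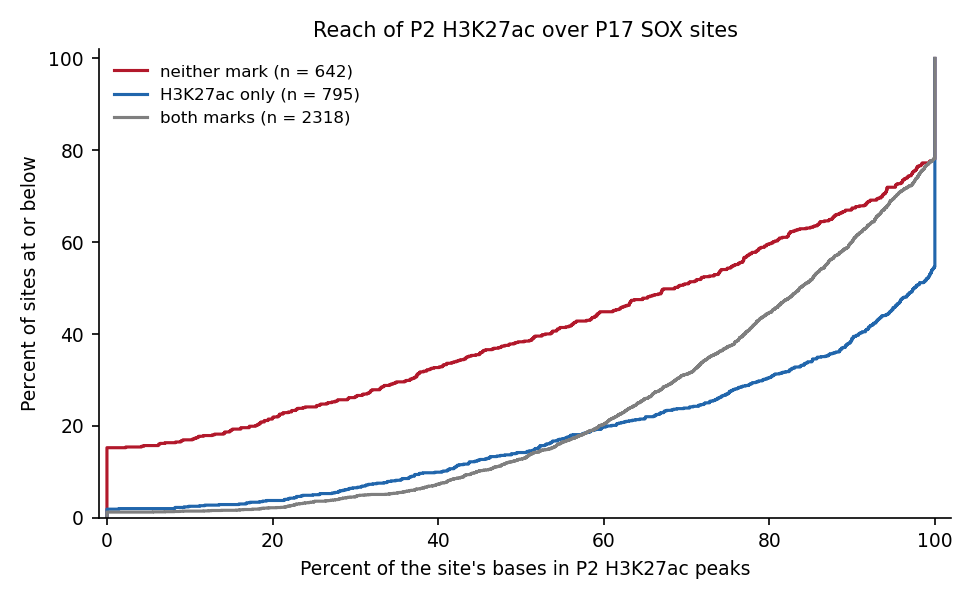
Cumulative percent of P17 SOX sites (y axis) whose bases lie in P2 H3K27ac peaks up to the percent on the x axis, for sites with neither P17 mark, with H3K27ac only and with both. The curve of the unmarked sites starts at the 98 sites with no P2 H3K27ac, and its median is 68.6% against 97.5% for H3K27ac only. It runs above that of H3K27ac only, and meets that of both marks near full cover, where 22.0 and 21.7% of sites are fully covered.

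The share was lower at each width. Among sites under 2000 bp, P2 H3K27ac touched 77.9% of the unmarked and 92.7% of the H3K27ac only sites. From 2000 to 5000 bp the shares were 82.0 and 98.3%, from 5000 to 8000 bp they were 85.8 and 98.4%, and at 8000 bp or more they were 92.4 and 98.4%. In the last bin the interval for the unmarked sites (85.1 to 96.3%) overlapped that of the H3K27ac only sites (94.5 to 99.6%), as it did in the first. Among the unmarked sites, P2 H3K27ac lay on 79.8% of those with SOX8 only, 86.5% of those with SOX9 only and 95.1% of those with both factors. Width moves with the factor, and its part in that order was not tested.

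P2 SOX peaks were rarer at the unmarked sites than at the H3K27ac only sites. A P2 SOX8 or SOX9 peak lay on 50 of 642 (7.79%, 5.96 to 10.1%), against 171 of 795 (21.5%) and 55.7% of all sites. The difference was -13.7 points (-17.2 to -10.1). Of the 50 sites, 34 held a P2 SOX9 peak without SOX8, 4 a P2 SOX8 peak without SOX9 and 12 both. Most of these P17 SOX peaks were thus in places with no listed SOX peak at P2. P2 H3K4me3 lay on 36 unmarked sites (5.61%) and 42 H3K27ac only sites (5.28%), against 58.3% of all sites. That difference was 0.324 points, with an interval of -2.02 to 2.79.

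**Figure D3:**
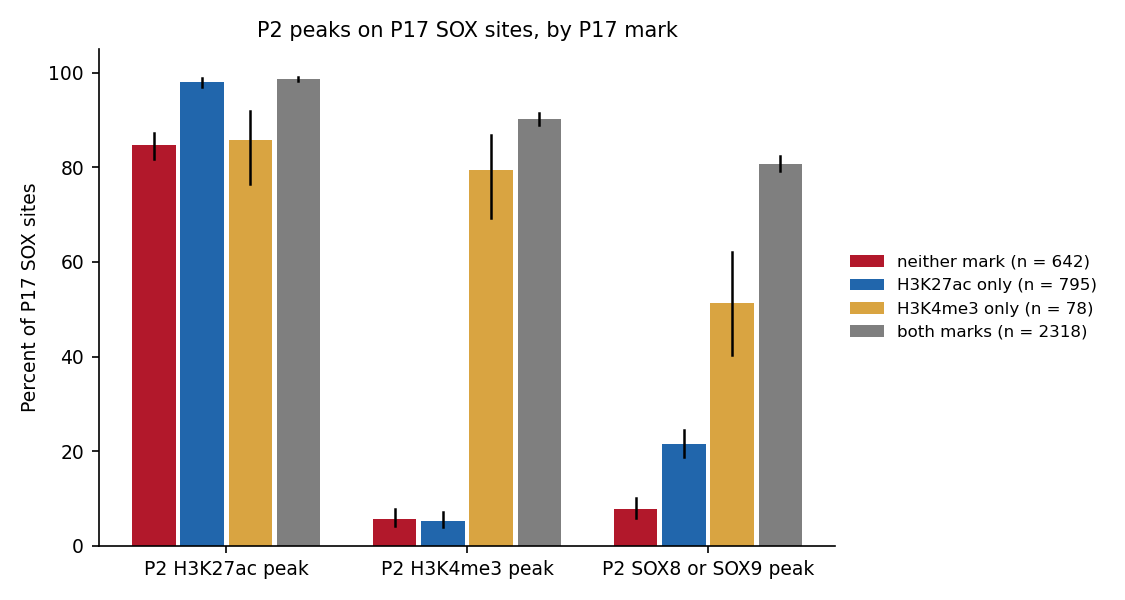
Percent of P17 SOX sites with a P2 H3K27ac, a P2 H3K4me3 or a P2 SOX8 or SOX9 peak, by P17 mark; bars are shares and vertical lines 95% Wilson intervals over sites. Unmarked sites stand at 84.7, 5.61 and 7.79%, against 98.1, 5.28 and 21.5% for H3K27ac only.

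In combination, 483 unmarked sites (75.2%) held P2 H3K27ac and no other P2 peak. Another 89 (13.9%) held no P2 peak of any list, a share of 1.89% (15 sites) among the H3K27ac only sites. P2 H3K27ac came with P2 SOX at 30 sites, with P2 H3K4me3 at 16 and with both at 15. The remaining 9 sites lacked P2 H3K27ac: 4 held P2 SOX alone, 4 held P2 H3K4me3 alone and 1 held both.

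The widest sites with a P2 SOX peak lay at Kif26a (11809 bp), Smtn (7590 bp), 26450 bp from the lens crystallin gene Cryba4 (7410 bp), at Egfl7 (7172 bp) and at Dmpk and Six5 (7112 bp). Sites at Kctd17 and Tmprss6 (7093 bp), Egr2 (6826 bp), Smad6 (6397 bp), Unc5b (5987 bp) and Entpd2 (5808 bp) followed. Kif26a encodes a kinesin family protein, Egfl7 a protein secreted by endothelial cells, and Egr2 a zinc finger factor of hindbrain and Schwann cell development. P2 H3K27ac covered 97.8% of the Egfl7 site and 97.3% of the Smad6 site, 10.5% of the Unc5b site and none of the Egr2 site. The Egr2 site was 1 of the 5 with P2 SOX and no P2 H3K27ac, together with sites in Bmp7 and Pou3f1, a site 9190 bp from Zfp978 and a site 287 bp from Tfeb. Those 5, picked after their values were seen, all held a P2 SOX9 peak, and Pou3f1 also P2 SOX8 and P2 H3K4me3.

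The 98 sites without P2 H3K27ac had a median width of 4866 bp (4179 to 5748 bp), against 5769 bp (5545 to 5989 bp) for the 544 with it. They lay farther from the P17 marks, with a median gap of 20242 bp (14974 to 28696 bp) against 11173 bp (9890 to 13136 bp). The gap to the nearest P2 H3K27ac peak had a median of 3183 bp and ran from 7 to 190858 bp. A promoter window was touched by 29 of them (29.6%, 21.5 to 39.3%) and by 20.4% (17.2 to 24.0%) of the 544, and these intervals overlap.
The widest of the 98 lay 101577 bp from Vmn1r2 (9022 bp), 919 bp from Neurod2 (8885 bp), 76487 bp from Syf2 (8632 bp), and in Lmx1b (8405 bp), Fgf17 (8355 bp) and Prdm12 (8264 bp). Neurod2 encodes a basic helix-loop-helix factor of neurons, Lmx1b a LIM homeobox factor, Fgf17 a fibroblast growth factor and Prdm12 a regulator of pain-sensing neurons. The others among the 12 widest lay 45479 bp from Btbd35f25 (8028 bp), in the anchoring fibril collagen gene Col7a1 (7975 bp), at Il11 and Tmem190 (7964 bp), in Arhgap8 (7868 bp), 23179 bp from Vmn1r77 (7828 bp) and at Ccdc151 and Rgl3 (7505 bp). Of these 12, the site at Ccdc151 and Rgl3 held both factors and a P2 H3K4me3 peak. The other members held SOX9 only and no P2 peak. Vmn1r and Btbd35f genes belong to families of near-identical copies, where reads may be placed on the wrong copy.

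Protein-coding genes overlapped 538 of the 642 sites (83.8%, 80.8 to 86.4%), against 86.9% of the H3K27ac only sites and 92.6% of all sites. The difference from H3K27ac only was -3.12 points (-6.86 to 0.539). A gene end, either the start or the stop of the gene, lay within 1 kb of the centre of 89 sites (13.9%), against 13.3% of the H3K27ac only sites and 40.8% of all sites, a difference of 0.530 points (-3.01 to 4.15) from H3K27ac only. A promoter window of any gene type was touched by 140 sites (21.8%), against 20.4% and 56.0%, with a difference of 1.43 points (-2.79 to 5.71). The intervals of all 3 differences from H3K27ac only include 0 and together reach from -6.86 to 5.71 points. All sites take in those on P17 H3K4me3, which the choice left out, so the contrasts with all sites are descriptions.

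Within genes, the sites lay toward the 3′ end. The choice left out every site on P17 H3K4me3, a mark typical of promoters. Place along the gene is thus coupled to the choice and is given as a description. Among 364 unmarked sites that overlapped a single gene of known strand, the median centre stood 64.0% of the way along the gene. When genes were cut into 5 equal parts from start to end, 13.2, 14.0, 17.6, 23.9 and 31.3% of the centres fell in each. Among 490 H3K27ac only sites the median was 63.5%, and 31.4% fell in the last part. Among 1417 sites with both marks the median was 5.78%, and 70.9% fell in the first part. Long sites can reach past the end of a short gene, so the place of a centre is only rough there. Exons, introns and untranslated regions were not analysed here.

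The unmarked sites lay in gene-dense stretches. The number of protein-coding genes within 100 kb on either side of the centre had a median of 5 (quartiles 3 and 8, range 0 to 24). The medians were 4 for H3K27ac only sites, 5 for sites with both marks, 4 for all P17 H3K4me3 peaks, 3 for all P17 H3K27ac peaks and 1 for 26018 positions set every 100 kb. No gene was in reach of 14 sites (2.18%), and 10 or more were in reach of 94 (14.6%). The last share was 12.7% for H3K27ac only and 21.6% for both marks. The most genes lay around Abhd16a (24), a lipid hydrolase gene, then around Grin1, Lrrc26 and Tmem210 (21), Aspscr1 (19), the ephrin gene Efna1 (18) and Gm19402 and Tspear (18). The Aspscr1 site was only 71 bp wide. The 5 widest sites with no gene in reach lay nearest to Vmn1r2, Mn1, Foxl1, Adgrb1 and Tmco5, at 101577 to 319498 bp. Unmarked sites had another P17 SOX site within 50000 bp in 409 cases (63.7%), against 75.8% for H3K27ac only and 47.9% for both marks.

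**Figure D4:**
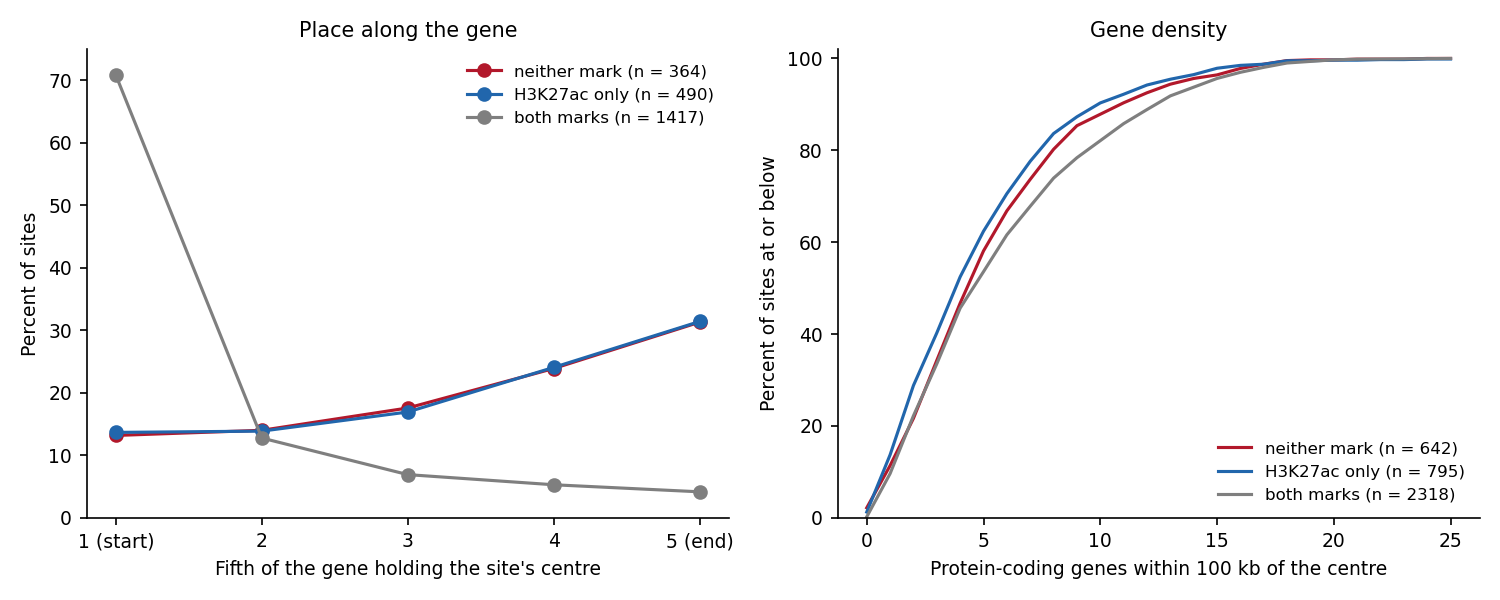
Left, percent of sites whose centre fell in each of 5 equal parts of the gene, from start to end, for sites in a single gene. Right, cumulative percent of sites by the number of protein-coding genes within 100 kb. The unmarked and H3K27ac only sites follow each other along the gene (31.3 and 31.4% in the last part), while sites with both marks fall in the first part (70.9%), and median gene numbers are 5, 4 and 5.

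The share of P17 SOX sites that were unmarked varied by chromosome. It was 25.7% on chromosome 15 (54 of 210, 20.3 to 32.0%), 24.5% on chromosome 4 (80 of 327, 20.1 to 29.4%) and 22.0% on chromosome 2 (72 of 327, 17.9 to 26.8%). It was 5.43% on chromosome 18 (5 of 92, 2.34 to 12.1%), 7.45% on chromosome 14 (7 of 94), 8.84% on chromosome 19 (13 of 147) and 8.89% on chromosome 13 (8 of 90). The intervals of chromosomes 15 and 4 lay wholly above that of chromosome 18. These chromosomes were picked as the highest and lowest after the values were seen, so the gap between them is a description. Of 15 sites on the X chromosome, 3 were unmarked.
On chromosome 4, sites in Zfp992, in Zfp978, and in Zfp981 and Zfp993 lay in a cluster of near-copies of zinc finger genes, so that their placement is uncertain. That of the 3 sites in Gm38510 and C130026I21Rik, which overlap each other, is uncertain too.

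The unmarked sites overlapped 538 of 21883 protein-coding genes (2.46%). Any P17 SOX site overlapped 3684 (16.8%). Of the 538 genes, 141 (26.2%) also held a marked SOX site, against 3287 of all 21883 protein-coding genes (15.0%). The median length of the 538 genes was 24.4 kb, against 17.2 kb for all protein-coding genes. Long genes offer more room for a site, and the part of length in the genes found was not tested. Somewhere in the gene, 229 of the 538 (42.6%) had a P17 H3K4me3 peak and 298 (55.4%) a P17 H3K27ac peak. Across all protein-coding genes these shares were 47.6 and 52.9%. Neither mark was present anywhere in 224 of the 538 (41.6%), against 43.9% of all genes. The genes were found through sites that lack these marks and were longer than other genes, so these shares are a description.

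More than 1 unmarked site was found in 61 genes, and 3 or more in 14. Zfp469, a zinc finger gene whose human counterpart is linked to corneal thickness, held 5, of 3369 to 10273 bp, and each touched P2 H3K27ac over 33.2 to 93.5% of its bases. Camta1, a calmodulin-binding transcription activator gene, held 4, and a P2 H3K27ac peak touched all but the 826 bp site there. Among the genes with 3 sites were Bahcc1, C130026I21Rik, Cdh23, Gm38510, Hspg2, Piezo1, Plec, Prex1, Rbm19, Sh3tc1 and Shank3. In Bahcc1 and Plec all 3 sites were covered over 100% of their bases by P2 H3K27ac peaks, and in the perlecan gene Hspg2 over 94.2 to 100%. In Cdh23, a cadherin of hair cell tip links, the covered share was 25.7 to 52.5%. Piezo1, a mechanically gated channel gene, had 88.1 to 100%. In Shank3, a postsynaptic scaffold gene, 1 of the 3 sites touched P2 H3K27ac (54.3%).

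Retinal cell type genes were read beside the 2.46% of all protein-coding genes that held an unmarked site, a share at which lists of this size would hold about 1 such gene or none. Of 26 rod genes, none held an unmarked site, whereas 18 held a marked SOX site and all 26 held a P17 H3K4me3 peak. Across all protein-coding genes, 15.0% held a marked SOX site and 47.6% a P17 H3K4me3 peak. The rod markers thus fit the labelled tissue, and other cell type lists held P17 H3K4me3 less often. It lay in 5 of 16 cone, 10 of 18 bipolar and 9 of 18 amacrine and horizontal genes. In ganglion cell and Müller glia genes the counts were 5 of 18 and 9 of 27. None of 16 cone, 18 bipolar, 18 amacrine and horizontal, 18 ganglion cell, 18 microglial and endothelial or 8 visual cycle genes held an unmarked site. Of 27 Müller glia genes, 1 did: Nfix, a nuclear factor I gene, through a 5173 bp SOX9 site that also overlapped Lyl1 and had no P2 H3K27ac. Marked SOX sites lay in 5 of those 27 genes. Of 22 progenitor genes, 1 held an unmarked site: Notch1, the receptor that keeps progenitors undifferentiated, with a 711 bp SOX8 site wholly inside P2 H3K27ac. In the Notch, Hippo and WNT list, 2 of 27 did, Notch1 and the ligand gene Jag2, whose 6093 bp site held both factors and was fully covered by P2 H3K27ac.
Among astrocyte and retinal pigment epithelium genes 1 of 14 held a site: Pax2, a paired-box factor of optic nerve astrocytes, with a 4383 bp SOX8 site and no P2 H3K27ac. Among ribbon synapse genes 1 of 19 did: Bsn, which encodes the active zone scaffold bassoon, with a 10014 bp SOX9 site fully covered. Of 30 chromatin regulator genes, 4 did (13.3%, the highest share of these lists), and 23 held a marked SOX site. Among them, the site in the H3K9 methyltransferase gene Ehmt2 (2277 bp) was covered over 96.0%, that in the H3K4 methyltransferase gene Kmt2d (6395 bp) over 57.9% and that in Prdm16 (6100 bp) over 32.0%. With so few members hit in each list, these counts describe the lists, and differences between the lists were not tested.

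Gene families were grouped by symbol after the genes were seen, and their counts are descriptions, to be read beside the 2.46% of all protein-coding genes with an unmarked site and the 15.0% with a marked one. Of 73 genes for Wnt, Fgf, Bmp and Tgfb family ligands, 8 held an unmarked site (11.0%) and 9 a marked one. They were Bmp7, Fgf17, Wnt1, Wnt2b, Wnt7a, Wnt7b, Wnt10b and Wnt11. At P2, H3K27ac touched 2 of their 8 sites: that of Wnt7b (8465 bp, 100% covered) and that of Wnt7a (1907 bp, 55.4%). The other 6 had none, whereas 544 of all 642 sites had it. Of 234 homeobox and paired-box genes, 9 held an unmarked site (3.85%): Cux2, Isl2, Lbx1, Lhx5, Lmx1b, Pax2, Pou3f1, Six5 and Tlx3. These 9 genes had 11 sites, of which 7 had no P2 H3K27ac, namely those in Isl2, Lbx1, Pax2, Pou3f1 and Tlx3 and both in Lmx1b. Isl2, Lhx5 and Lbx1 are LIM or ladybird homeobox factors known from neuron subtype choice.
Of the sites in PRDM genes, P2 H3K27ac touched 1 of 2, in forkhead genes 2 of 3, in Zfp genes 9 of 12 and in collagen genes 4 of 5. All 14 sites in 13 of 385 solute carrier genes had it, as did all 6 in 4 of 101 cadherin genes and all 5 in 3 of 14 plakin and spectrin genes (Evpl, Plec and Sptbn5). All 4 sites in the glutamate receptor genes Grik3, Grin1 and Grin3b had it. No site lay in any of 1465 olfactory and vomeronasal receptor genes or 95 ribosomal protein genes, although 21 of the latter held a marked SOX site.

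The unmarked sites touched 129 promoter windows of 106 protein-coding genes. The median GC content of these windows was 62.7%, and their median CpG ratio was 0.590. Of the 129, 64 (49.6%, 41.1 to 58.1%) were CpG-rich. The share was 44.4% (36.3 to 52.9%) of 135 windows under H3K27ac only sites and 80.7% (79.1 to 82.2%) of 2525 under sites with both marks. Among 11630 windows with no P17 H3K4me3, whether or not a SOX site lay there, it was 17.7% (17 to 18.4%), and among all 21237 it was 44.9%. The CpG-rich share under the unmarked sites thus lay above that of windows without H3K4me3, with intervals that do not overlap, and close to that of H3K27ac only sites. Windows of 1 gene can overlap, so they are not independent. Of 31 windows under sites with P2 H3K4me3, 64.5% (46.9 to 78.9%) were CpG-rich, against 44.9% (35.4 to 54.8%) of 98 without it, and these intervals overlap.

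**Figure D5:**
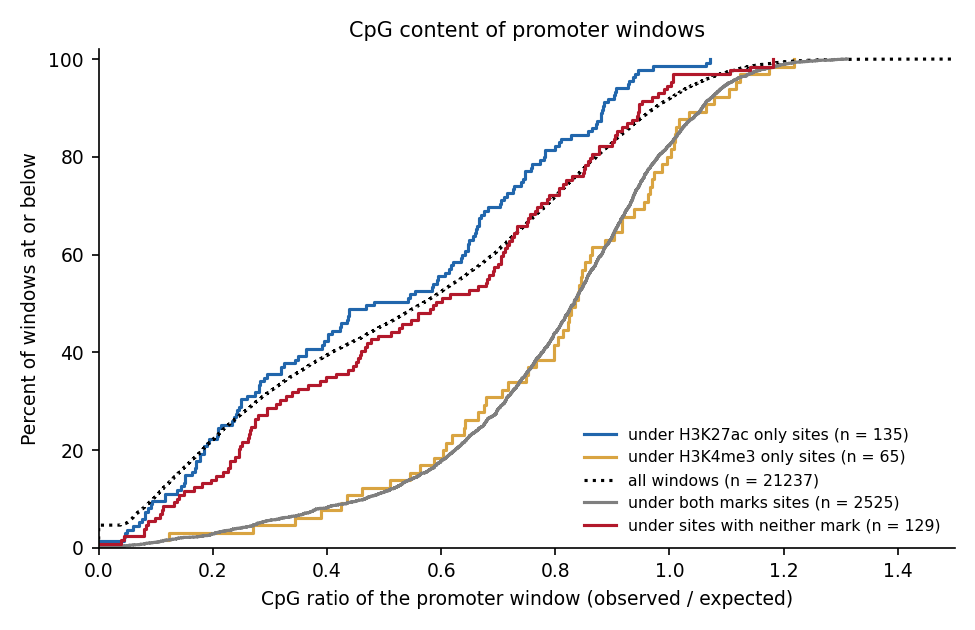
Cumulative percent of promoter windows (y axis) up to the observed-to-expected CpG ratio on the x axis, for windows of protein-coding genes under each class of P17 SOX site and for all windows. The curve of the 129 windows under sites with neither mark (median 0.590) lies between those of H3K27ac only (0.483) and both marks (0.833) and close to that of all windows (0.567).

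AACAAT or AACAAAG, on either strand, was found in 11 of the 129 windows (8.53%, 4.83 to 14.6%), against 13.4% of all windows and 18.1% of windows without P17 H3K4me3. Under the other P17 SOX sites the share was 6.67% (3.55 to 12.2%) for H3K27ac only, 6.15% for H3K4me3 only and 6.61% for both marks, so that the interval of the unmarked windows spans all 3. Both words are rich in A and T. The median GC content was 62.7% over the 129 windows, 56.3% over all windows and 50.7% over those without P17 H3K4me3. The part of base content in the match shares was not tested. The 11 windows lay at Tnfrsf25, Six5, Meltf, Smad6, Isl2, Gramd4 (2 windows), Il17rc, Fzd7, Tlx3 and 4931408C20Rik, named here since they are all the windows with a match. A window with no match says only that these letters are not in that window. The sites themselves extend far beyond the windows, and their own sequence was not analysed here.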

How the data were processed

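CUT&RUN was done on wild-type mouse retina at P2 and P17. The 8 peak lists were used as deposited: BED intervals (chromosome, start, end) with a score of 0 for every peak, so the score carried no information. Bowtie2, SEACR and the build GRCm38 are named in the submitters' processing notes, without versions or roles. The peak threshold, the use of the IgG libraries and how libraries were combined into a list are not given in the sources used here. No depth or read count was available to weigh a peak.

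P17 SOX8 and SOX9 peaks were merged where they shared 1 bp or more, and classed by an overlap of 1 bp or more with the P17 marks. Genes (21883 protein-coding) and promoter windows (250 bases before to 50 after the start; 21237 of protein-coding genes) came from RefSeq GRCm38.p6, the build of the lists. Strand was known for 17491 genes. The 95.0% Wilson, Newcombe and order-statistic intervals were computed with Python 3.11.15, numpy 2.4.6, pandas 2.3.3, scipy 1.17.1 and statsmodels 0.14.6, and the overlap code was tested on simulated intervals. Members, gene lists and rules were chosen with earlier results of these data known. Sites named are the 10 widest, the 10 widest with both factors, the 12 widest without P2 H3K27ac, the 10 widest with P2 SOX, those with most or no genes within 100 kb, members of the gene lists, genes with 3 or more sites, and up to 10 promoters; other names were chosen after their values were seen. Alternatives tried were other overlap rules, 1 factor alone, narrower or wider sites, other distances and a shorter P2 list. Library-level comparisons were not made, since the lists pool libraries. Some genes that the naming rule picks are not reported here.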

Additional observations from a re-analysis of the deposited data

How the results depend on the processing

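No paired analysis was possible because the peak lists pool the libraries of a target and name no replicate, and for the same reason no library could be left out. Of the differences from H3K27ac only, those in P2 H3K27ac and P2 SOX were recomputed under alternatives and none reversed, while those in P2 H3K4me3, genes, gene ends and promoters were not. Of 100 alternative values, 75 stayed within the interval or limit set for them. With SOX8 peaks alone there were 334 unmarked peaks (13.9%) in 276 genes, with a median width of 3199 bp and a P2 SOX difference from H3K27ac only of -17.5 points. With SOX9 peaks alone there were 398 (13.9%), with a median width of 6576 bp, P2 H3K27ac on 87.9% and a difference of -10.5 points. Counting only overlaps of 50% of the shorter interval gave 18.8% unmarked, and asking for no mark within 1 kb gave 15.5%. The wider 50% of the sites had a median width of 6981 bp, P2 H3K27ac on 87.5% and P2 SOX on 4.05%. Taking P2 status from 500 bp around the centre gave P2 H3K27ac on 68.1%, with differences of -22.0 points for H3K27ac and -9.22 points for SOX. The widest P2 H3K27ac peaks in the P17 number gave 53.0% and -25.3 points. Genes of every type held 89.1% of the sites, genes with 5 kb added 88.2%, and a gene end lay within 5 kb of 49.1%. Median gene numbers were 3 within 50 kb and 18 within 500 kb. The unknown depth limits every absence: a missing peak is a peak not called, and the size of signal there is not known.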
